A study of Mus musculus with 13 samples.

Results

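Nuclear genes of the respiratory complexes II to V were followed in the CA1 region of mouse entorhino-hippocampal slice cultures after transection of an excitatory input pathway. The members were the gene symbols of the succinate dehydrogenase subunits Sdha to Sdhd and the cytochrome genes Cyc1 and Cycs. All symbols beginning with Uqcr, Cox4 to Cox8 or Atp5 joined them, with symbols containing -ps left out. This rule gave 50 of the 55291 symbols in the count tables. Of these, 4 belong to complex II, 10 to complex III with its electron carrier cytochrome c, 19 to complex IV and 17 to complex V. Cox6c2, counted under complex IV, is annotated as a processed pseudogene but has no -ps in its symbol and was kept. Each of the 13 libraries held RNA of 1 CA1 region cut from 1 wild-type C57BL/6 culture that had matured for at least 18 days in vitro. The groups were 5 non-lesioned controls, 4 cultures in which a cut separated CA3 from CA1 (Schaffer collateral lesion, SCL) and 4 in which the perforant path from the entorhinal cortex was cut (ECL). Lesioned cultures were sampled 3 days after the cut, and the scar itself was not collected. Slice cultures are made from early postnatal pups and keep the local circuit, but not the blood supply or the inputs from the rest of the brain.

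Complexes II, III and IV of the inner mitochondrial membrane pass electrons from succinate and ubiquinol over cytochrome c to oxygen, complexes III and IV pump protons as they do so, and complex V, the ATP synthase, uses the proton gradient to make ATP. Complex II is encoded in the nucleus alone. Cytochrome b of complex III, the catalytic core of complex IV and part of the membrane sector of complex V come from the mitochondrial genome. The nuclear subunits described here join them, and in complex III they include the electron carriers Cyc1 and Uqcrfs1. Several complex IV subunits exist as paralogues with different tissue preferences, and neurons depend strongly on oxidative phosphorylation to restore ion gradients after synaptic activity.

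The libraries held 14371152 to 21092612 counts in controls, 16405517 to 56786613 after SCL and 20210165 to 46449937 after ECL, so that lesioned libraries were on the whole the deeper ones. Levels are given as CPM, the counts scaled to a fixed library total with TMM factors over genes with a mean of at least 150 normalized counts. Differences are given as log2 fold changes with their standard error (SE) from edgeR's quasi-likelihood test, called at an adjusted p-value under 0.05 over all genes tested. The summed level of 8 microglia markers was 319 to 365 CPM in controls, 649 to 1070 CPM after SCL and 627 to 832 CPM after ECL. All 8 were called higher after SCL and 4 of 8 after ECL. Of 6 pan-neuronal markers, 2 were called lower after SCL and 4 after ECL, with summed levels of 3380 to 4410, 2970 to 4090 and 2830 to 4420 CPM. Of 7 astrocyte markers, 3 were called higher after SCL and 2 after ECL and none lower, with Gfap at log2 fold changes of 0.85 and 0.73. Others pointed down, with lowest log2 fold changes of -0.41 after SCL and -0.8 after ECL. Slc1a2, for example, had 2230 to 3290 CPM in controls and 1890 to 2080 CPM after ECL. The summed levels of the 7 astrocyte markers were 7360 to 12600, 8990 to 10600 and 8100 to 9470 CPM. Of 6 oligodendrocyte markers, Mbp (0.78 and 0.81) and Mog (1.24 and 1.32) were called higher after both lesions, at summed levels of 4230 to 5720, 4210 to 5330 and 3730 to 5760 CPM. The 6 CA1 pyramidal markers summed to 332 to 419 CPM in controls, 312 to 392 CPM after SCL and 278 to 492 CPM after ECL, and 5 dentate granule markers to 64.1 to 84.1, 44.3 to 48.4 and 42.2 to 58.1 CPM. The CA1 marker Pou3f1 was called lower after SCL, and the dentate marker Stxbp6, 1 of 2 tested, was called lower after both lesions. In whole CA1 tissue, a change in the number of cells of a type and a change in RNA per cell cannot be told apart, and the part of cell composition in the differences below was not tested.

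The members together took 1.71% ± 0.222 (SD, n = 5) of all counts in controls, 2.14% ± 0.185 (n = 4) after SCL and 2.05% ± 0.0675 (n = 4) after ECL. The highest control library was at 1.95%, which was also the lowest value after SCL, and every ECL library lay above it. The shares of complex III did not overlap between controls (0.261% to 0.42%) and SCL (0.427% to 0.494%), while those of complex IV overlapped after both lesions.

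**Figure D1:**
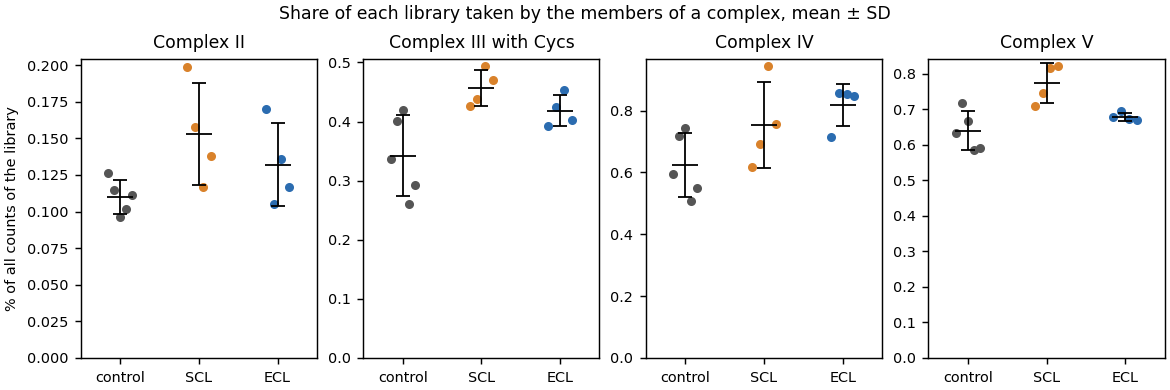
Percent of all counts of a library (vertical axes, each from 0) taken by the members of complex II, complex III with Cycs, complex IV and complex V, in control, SCL and ECL libraries. Points are libraries and bars show the mean ± SD (n = 5, 4 and 4). Mean shares in controls, SCL and ECL were 0.342%, 0.457% and 0.418% for complex III, and 0.639%, 0.773% and 0.679% for complex V.

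After SCL, 45 members passed the mean minimum and 20 of them were called, 18 higher (40.0%) and 2 lower (4.44%), where 13.1% of the 11438 genes tested were called higher and 11.8% lower (24.9% in all). After ECL, 45 members were tested and 21 were called, 14 higher (31.1%) and 7 lower (15.6%), against 15.2% higher and 12.5% lower among 11212 genes (27.8% in all). Among the tested members the median log2 fold change was 0.41 in the SCL comparison and 0.25 in the ECL comparison, beside 0.01 and -0.01 for all genes tested. The libraries of the 2 groups did not overlap for 18 members after SCL (15 higher, 3 lower) and for 20 after ECL (12 higher, 8 lower), against 23.7% (12.2% higher, 11.5% lower) and 25.1% (13.2% higher, 11.9% lower) of all genes tested. At an adjusted p under 0.01, 6 members were called after SCL and 17 after ECL, against 9.14% and 13.3% of all genes. Both lesions were compared with the same 5 controls. By complex, the calls after SCL were 2 higher in complex II, 5 higher in complex III, 5 higher and 2 lower in complex IV, and 6 higher in complex V. After ECL they were 2 higher in complex II, 1 higher in complex III, 6 higher and 4 lower in complex IV, and 5 higher and 3 lower in complex V. Called higher after both lesions were Atp5c1, Atp5e, Atp5g1, Atp5pb, Cox5a, Cox6b2, Cox7a2l, Cox8a, Sdhc, Sdhd and Uqcrfs1 (11 members), called lower after both were Cox6a2 and Cox7c, and no member was called in opposite directions. Of the 44 members tested after both lesions, 17 were called after neither.

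**Figure D2:**
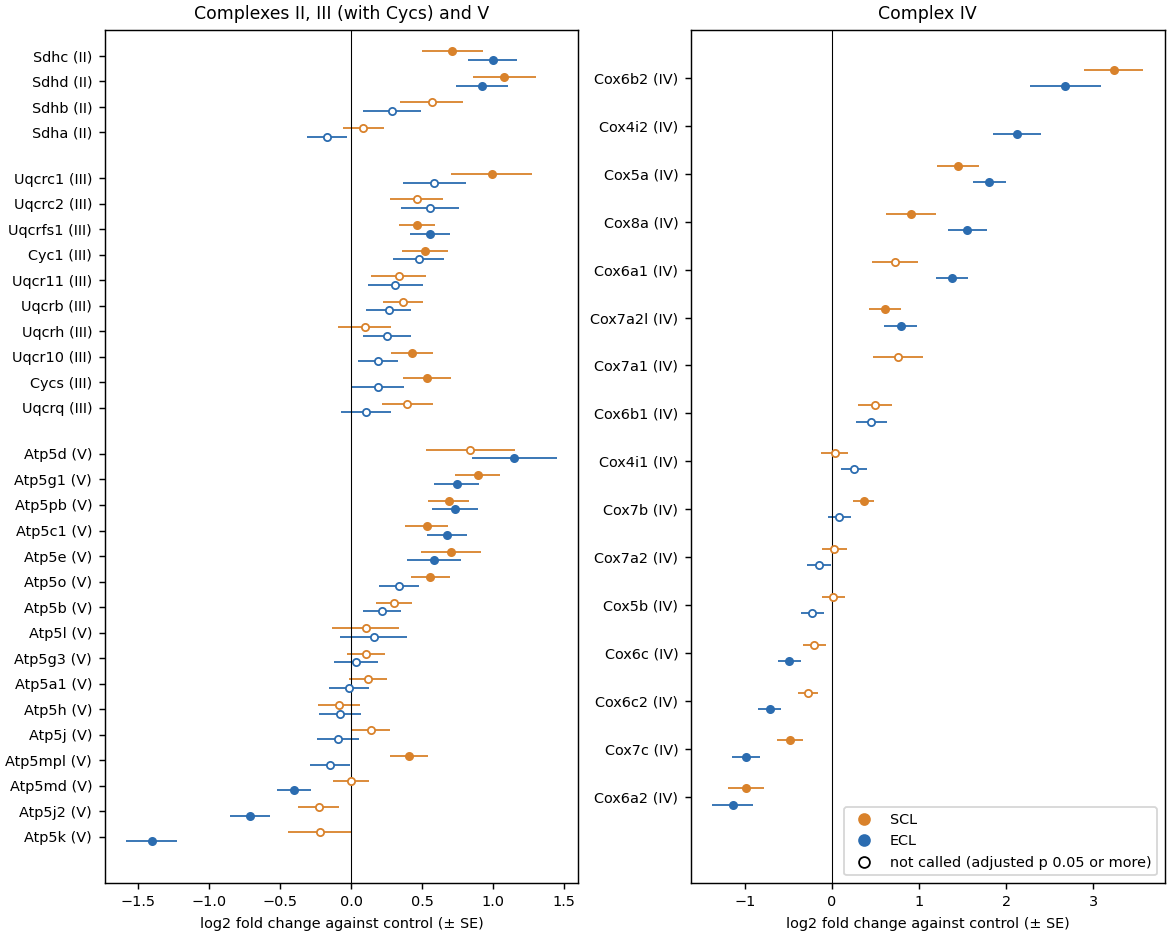
log2 fold change against control (horizontal axes) of each tested member, with its complex in brackets, after SCL (orange) and ECL (blue). Lines show ± 1 SE of the edgeR fit, filled points were called at an adjusted p-value under 0.05 and open points were not. Cox6b2 had the highest values after both lesions (3.24 and 2.68), and Atp5k the lowest after ECL (-1.40) with an open point at -0.22 after SCL.

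The levels per exon length spanned a wide range within every complex. In controls, Uqcr10 and Uqcr11 of complex III had 1135 ± 158 and 774 ± 209 CPM per kilobase of exon (SD, n = 5), Cox6b1 and Cox6a1 of complex IV 1053 ± 238 and 863 ± 181, Atp5k and Atp5o of complex V 816 ± 176 and 327 ± 22.9, and Sdhb and Sdha of complex II 307 ± 51.7 and 88.0 ± 9.41. The least abundant member past the mean minimum in any comparison was Cox6b2, with 2.42 ± 0.810 CPM per kilobase in controls. The values of Uqcr10 and Cox6b1 lay within each other's spread.

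**Figure D3:**
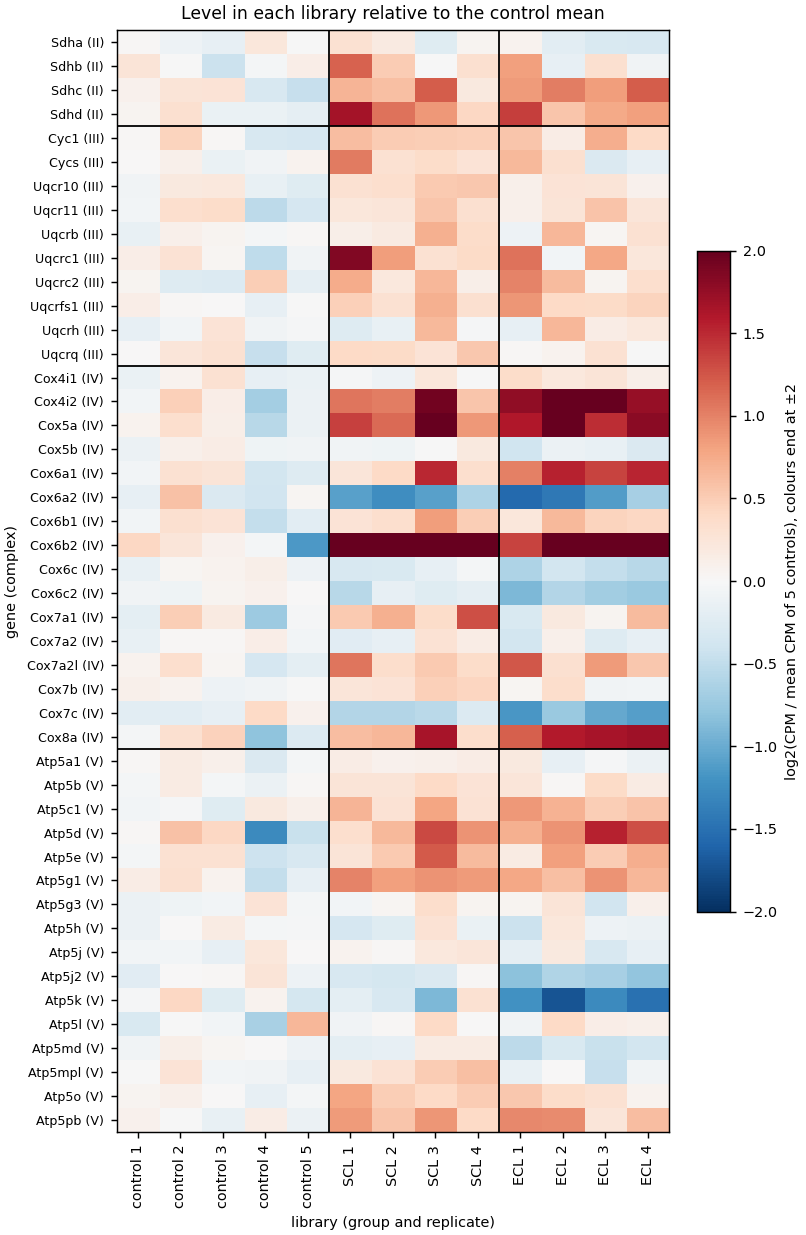
Heat map of the log2 ratio of each library's CPM to the mean CPM of the 5 controls, for the 46 members tested in at least 1 comparison (rows, by complex) in the 13 libraries (columns, by group and replicate). Red is above and blue below the control mean, with colours ending at ±2. The rows of Cox6b2 and Cox5a are red in every lesioned library, those of Cox6a2 and Cox7c are blue in every lesioned library, and Atp5k is blue in all 4 ECL libraries.

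In complex II, the membrane anchors changed and the flavoprotein did not pass the test. Sdhd, the small anchor subunit that helps bind ubiquinone, lies on chromosome 9 (GRCm38, 50596357 to 50603812, minus strand). Its levels in control replicates 1 to 5 were 31.5, 38.0, 27.7, 27.8 and 26.9 CPM, after SCL 96.2, 64.6, 55.3 and 40.6 CPM, and after ECL 78.8, 44.8, 51.3 and 53.9 CPM. Every lesioned library lay above every control. Its log2 fold change was 1.08 ± 0.22 for SCL (SE, adjusted p = 0.00560, edgeR). For ECL it was 0.92 ± 0.18 (adjusted p = 0.00263, edgeR). Sdhc, the other anchor, rose from 65.2, 72.9, 73.9, 49.0 and 44.6 CPM in controls to 111, 125, 109 and 141 CPM after ECL without overlap (1.00 ± 0.17, adjusted p = 0.00124, edgeR). After SCL, Sdhc had 97.9, 93.1, 141 and 69.7 CPM, overlapped the controls and was called at 0.71 ± 0.21 (adjusted p = 0.0273, edgeR). The call was lost without control replicate 4 or 5 or SCL replicate 1 or 3 (0.51 to 0.73, adjusted p 0.0517 to 0.105). Sdhb, the iron-sulfur subunit, was not called after SCL (0.57 ± 0.22, adjusted p = 0.0743, edgeR) or ECL (0.29, adjusted p = 0.310, edgeR). Its SCL value was 0.29 without SCL replicate 1 (adjusted p 0.259) and 0.72 without SCL replicate 3 (adjusted p 0.0400), and its ECL value ran from 0.07 without ECL replicate 1 to 0.41 without ECL replicate 2. SCL replicate 1 (1550 CPM) and ECL replicate 1 (1211 CPM) were far above its highest control (822 CPM). Sdha, which carries the FAD cofactor and the succinate site, was at 0.09 and -0.17 in the 2 comparisons (adjusted p = 0.688 and 0.383, edgeR).

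In complex III, all 10 members had positive log2 fold changes after both lesions, except that an offset for exon length and GC content turned 2 of them after SCL (Uqcr11 and Uqcrh) and 5 after ECL (Uqcr10, Uqcr11, Uqcrb, Uqcrh and Uqcrq), none of them called with the offset. Of the 10, 5 were called after SCL and 1 after ECL. Uqcrfs1, the Rieske iron-sulfur protein that takes electrons from ubiquinol, was the one called after both. It had 175, 163, 160, 142 and 158 CPM in controls, 222, 196, 260 and 200 CPM after SCL, and 294, 210, 209 and 218 CPM after ECL, with no overlap. Its log2 fold changes were 0.46 ± 0.13 (adjusted p = 0.0201, edgeR; lost without SCL replicate 3, at 0.38 and 0.0658) and 0.55 ± 0.14 (adjusted p = 0.00995, edgeR). Uqcrc1, a core subunit that faces the matrix, had 183, 204, 172, 117 and 159 CPM in controls, 605, 297, 207 and 217 CPM after SCL, and 356, 161, 285 and 196 CPM after ECL. SCL replicate 1 stood far above the other libraries, and the ECL values overlapped the controls. Uqcrc1 was called after SCL at 0.99 ± 0.29 (adjusted p = 0.0246, edgeR). It was not called without SCL replicate 1 (0.52) or control replicate 5 (0.97), at adjusted p 0.0574 to 0.0704. After ECL it was at 0.59 ± 0.22 (adjusted p = 0.0604, edgeR; without control replicate 2 or ECL replicate 2 called at 0.67 to 0.75 and adjusted p 0.0252 to 0.0473).

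Cyc1, the cytochrome c1 subunit that hands electrons to cytochrome c, had 94.3, 127, 94.5, 74.4 and 73.1 CPM in controls and 142, 131, 130 and 129 CPM after SCL, a narrow range just above the highest control (0.52 ± 0.16, adjusted p = 0.0330, edgeR). After ECL, Cyc1 had 136, 102, 153 and 122 CPM and was at 0.48 ± 0.18 (adjusted p = 0.0616, edgeR; called without control replicate 2 or ECL replicate 2, at 0.57 to 0.62 and adjusted p 0.0162 to 0.0467). The small subunit gene Uqcr10 was called after SCL at 0.43 ± 0.15 (adjusted p = 0.0477, edgeR), from 563 to 765 CPM in controls to 817 to 968 CPM, and was at 0.19 after ECL (adjusted p = 0.342, edgeR). The Cyc1 call was lost without control replicate 1, 4 or 5 or SCL replicate 1, 2 or 3 (0.45 to 0.54, adjusted p 0.0571 to 0.0745). The Uqcr10 call was lost without control replicate 1, 4 or 5 or any SCL replicate (0.37 to 0.47, adjusted p 0.0530 to 0.108). Cycs, somatic cytochrome c itself, which was named after its values were seen, had 42.8 to 50.4 CPM in controls and 96.3, 57.5, 60.3 and 56.8 CPM after SCL. Its call after SCL (0.53 ± 0.17, adjusted p = 0.0371, edgeR) was lost without control replicate 1, 3, 4 or 5 or SCL replicate 1 or 3 (0.32 to 0.59, adjusted p 0.0533 to 0.120), and 77.4% of the 100-base stretches of its exons occur in no other annotated transcript. Uqcrc2, a core subunit, was not called at 0.46 (SCL, adjusted p = 0.0833, edgeR) or 0.56 (ECL, adjusted p = 0.0556, edgeR). It was called after SCL without control replicate 4 (0.61, adjusted p 0.0203) and after ECL without control replicate 4 or ECL replicate 3 (0.69 to 0.70, adjusted p 0.0143 to 0.0218). The small subunits Uqcrb, Uqcrh and Uqcrq were not called, at 0.36, 0.09 and 0.40 after SCL and 0.26, 0.25 and 0.11 after ECL. Uqcr11, one of the most abundant complex III members per length, was at 0.33 after SCL and 0.31 after ECL (adjusted p = 0.224 and 0.248, edgeR).

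Complex IV held the highest fold changes of all tested members and, after both lesions, calls in both directions. Cox6b2, a paralogue of the intermembrane-space subunit VIb that is best known from testis, lies on chromosome 7 (4751792 to 4753094, minus strand). Its levels were 3.57, 3.16, 2.84, 2.62 and 1.21 CPM in controls, 18.1, 17.8, 41.5 and 24.3 CPM after SCL, and 6.82, 20.3, 11.3 and 30.3 CPM after ECL. All lesioned libraries lay above all controls. The counts behind these values were 18 to 64 per control library, 410 to 1552 after SCL and 236 to 696 after ECL. The mean minimum was thus passed only through lesioned libraries, and the fold changes below rest on low control counts. The log2 fold change was 3.24 ± 0.34 for SCL (adjusted p = 0.000266, edgeR) and lay between 2.90 and 3.38 when any 1 library was left out. For ECL it was 2.68 ± 0.41 (adjusted p = 0.000556, edgeR) and lay between 2.49 and 2.95 in the 8 such fits in which Cox6b2 was tested. None of the 8 germ cell markers reached the mean minimum in any comparison. Their summed level was 10.2 to 17.2 CPM in controls, 9.33 to 12.3 CPM after SCL and 7.72 to 12.8 CPM after ECL. Ddx4 and Dazl had 3.63 to 10.4 CPM and 4.3 to 8.68 CPM in controls, above the control range of Cox6b2. The rest of the list had at most 1.12 CPM in any library, and Prm1 and Prm2 were at 0 in all control and SCL libraries.

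The ubiquitous paralogue Cox6b1, on the same chromosome (30616861 to 30626151, minus strand), had 717, 927, 905, 535 and 645 CPM in controls, 898, 941, 1329 and 1046 CPM after SCL, and 873, 1174, 1014 and 989 CPM after ECL. The groups overlapped. Its log2 fold change was 0.49 ± 0.19 for SCL (adjusted p = 0.0747, edgeR), and for ECL it was 0.45 ± 0.18 (adjusted p = 0.0735, edgeR; called without control replicate 2 or 3, at 0.53 to 0.54 and adjusted p 0.0440 to 0.0497). Cox6b2 thus remained the minor form, with 0.365% ± 0.129 of the CPM of the pair in controls, 2.28% ± 0.525 after SCL and 1.64% ± 0.969 after ECL. The lowest lesioned library (0.775%) lay above the highest control (0.496%).

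RefSeq promoter windows on GRCm38.p6 were given for 37 of the 50 members and were searched on both strands for the NRF1 consensus (GCGC and TGCGC with any base between them) and for CCGGAAG, the core bound by ETS factors such as GABP. Both are textbook regulators of respiratory genes, and matches were counted whether or not the motifs overlapped. The NRF1 letters occurred in a 300-base window of 10 of the 37 members (27%) and of 5.19% of 27025 genes, and the ETS letters for 13 members (35.1%) and 9.93% of genes. Both motifs were found for 4 members (10.8%, against 1.12% of all genes), Atp5h, Atp5k, Cox6a1 and Sdhd. The bases directly before the annotated starts of the paralogues Cox6b1 and Cox6b2, and of Cox6a1 are printed 5′ to 3′ on the gene's strand, with NRF1 matches in capitals. The Cox6b pair is shown because its members lay far apart in level and fold change, and Cox6a1 because its window holds both motifs. Annotated exons were left out of these stretches, and matches can also lie outside them.
Cox6b1, chr7:30626152-30626364, minus strand: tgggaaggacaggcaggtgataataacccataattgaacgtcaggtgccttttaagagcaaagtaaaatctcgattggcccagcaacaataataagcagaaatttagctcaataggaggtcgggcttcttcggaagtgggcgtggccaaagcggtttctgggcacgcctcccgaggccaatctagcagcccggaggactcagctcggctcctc
Cox6b2, chr7:4753095-4753225, minus strand: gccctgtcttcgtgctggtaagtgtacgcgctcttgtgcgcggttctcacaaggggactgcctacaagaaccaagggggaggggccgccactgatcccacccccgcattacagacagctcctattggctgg
Cox6a1, chr5:115348982-115349129, minus strand: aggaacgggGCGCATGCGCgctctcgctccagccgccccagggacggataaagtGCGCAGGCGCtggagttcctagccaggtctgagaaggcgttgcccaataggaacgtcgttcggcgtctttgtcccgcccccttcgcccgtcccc
The 2 NRF1 matches of Cox6a1 start 139 and 94 bases before the end of the printed stretch, the second on the opposite strand. Neither printed Cox6b stretch holds either motif, but the full 300-base window of Cox6b1 holds the ETS letters, and that of Cox6b2 holds neither. Matches are a description of the letters, not a test of binding.

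Of the Cox6a paralogues, Cox6a1 rose after ECL and Cox6a2 fell after both lesions. Cox6a1, the liver-type form of subunit VIa and the one found in most tissues, had 581, 749, 725, 468 and 506 CPM in controls and 1224, 1766, 1544 and 1734 CPM after ECL, all above the controls (log2 fold change 1.38 ± 0.18, adjusted p = 0.000226, edgeR). After SCL it had 719, 796, 1730 and 761 CPM, of which replicate 3 alone lay in the ECL range. The log2 fold change of 0.72 ± 0.26 was not called (adjusted p = 0.0577, edgeR; 0.33 without SCL replicate 3, and called without SCL replicate 1 or 4, at 0.83 to 0.85 and adjusted p 0.0448 to 0.0464). Cox6a2, the heart and muscle form, fell from 58.9, 98.4, 54.0, 50.7 and 67.5 CPM in controls to 31.1, 28.0, 31.2 and 42.9 CPM after SCL and 22.4, 24.5, 30.5 and 41.5 CPM after ECL. No lesioned library reached the lowest control. The log2 fold change was -0.99 ± 0.21 for SCL (adjusted p = 0.00680, edgeR), and -1.14 ± 0.23 for ECL (adjusted p = 0.00283, edgeR). Of the CPM of the pair, Cox6a2 took 9.86% ± 1.98 in controls, 3.66% ± 1.49 after SCL and 1.86% ± 0.400 after ECL. Of its exon bases, 10.3% are shared with Itgad on the other strand, which unstranded counting cannot separate.

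Cox5a, a nuclear subunit that binds the matrix side of the core, had 83.4, 100, 86.2, 54.0 and 72.9 CPM in controls, 205, 174, 342 and 145 CPM after SCL, and 241, 366, 222 and 276 CPM after ECL. Neither lesion group overlapped the controls. The log2 fold change was 1.45 ± 0.24 for SCL (adjusted p = 0.00243, edgeR), and for ECL it was 1.81 ± 0.19 (adjusted p = 7.36e-05, edgeR). Of its exon bases, 12.8% are shared with another annotated gene, Gm26631. Its partner Cox5b was at 0.02 after SCL and -0.23 after ECL (adjusted p = 0.941 and 0.224, edgeR). Cox8a, the ubiquitous form of subunit VIII, had 344, 444, 488, 202 and 295 CPM in controls, 543, 565, 1112 and 453 CPM after SCL, and 816, 1059, 1116 and 1145 CPM after ECL. The ECL libraries lay above all controls (1.55 ± 0.22, adjusted p = 0.000389, edgeR), while SCL replicate 4 lay within them. The call after SCL (0.91 ± 0.29, adjusted p = 0.0365, edgeR) was lost without control replicate 1, 4 or 5 or SCL replicate 2 or 3 (0.55 to 0.98, adjusted p 0.0518 to 0.147). The lowest of these fold changes was that without SCL replicate 3.

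Cox4i2, the paralogue of subunit IV that is known as the oxygen-responsive form, stayed scarce beside Cox4i1. It had 3.80, 5.48, 4.33, 2.46 and 3.63 CPM in controls and 13.4, 20.5, 21.4 and 13.2 CPM after ECL without overlap (2.12 ± 0.27, adjusted p = 0.000203, edgeR). Its counts were 45 to 104 in control libraries and 303 to 594 after ECL, so here too the minimum was passed only through lesioned libraries. After SCL Cox4i2 had 8.25, 8.01, 15.04 and 5.81 CPM, also above every control, but its mean was under the minimum of 150 normalized counts in that comparison. With the edgeR filter filterByExpr in place of the mean minimum, Cox4i2 was called after SCL at 1.30 ± 0.32 (adjusted p = 0.0173, edgeR). Cox4i1 was at 0.03 and 0.25 in the SCL and ECL comparisons (adjusted p = 0.904 and 0.223, edgeR) and kept 98.5% or more of the CPM of the pair in every library. The share of Cox4i2 was 0.322% ± 0.0741 in controls, 0.728% ± 0.235 after SCL and 1.18% ± 0.310 after ECL.

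Of the Cox7a forms, Cox7a2l was called after SCL at 0.61 ± 0.18 (adjusted p = 0.0292, edgeR), and its ECL value was 0.79 ± 0.19 (adjusted p = 0.00828, edgeR). Its controls spanned 133 to 213 CPM, and the lesioned libraries were at 353, 215, 243 and 218 CPM after SCL and at 397, 210, 305 and 246 CPM after ECL. On this scale of all 13 libraries, ECL replicate 2 alone lay within the control range. Scaled within the SCL comparison alone, SCL and control libraries of Cox7a2l overlapped. The call after SCL was lost without control replicate 1, 4 or 5 or SCL replicate 1 or 3 (0.42 to 0.64, adjusted p 0.0512 to 0.0883). Cox7a2 was at 0.02 and -0.15 (adjusted p = 0.916 and 0.439, edgeR). Cox7a1, the muscle form, was at 0.76 ± 0.29 after SCL (adjusted p = 0.0675, edgeR; called without control replicate 2, at 0.91 and adjusted p 0.0432) and was under the mean minimum after ECL. Cox7b was called after SCL at 0.36 ± 0.12 (adjusted p = 0.0442, edgeR), and lost that call in 8 of the 9 fits that left out 1 library, all but the one without SCL replicate 1 (0.33 to 0.39, adjusted p 0.0622 to 0.110). Its testis paralogue Cox7b2 and the forms Cox8b and Cox8c were under the mean minimum in every comparison. Cox7b2 had 6 to 62 counts in a library, Cox8b at most 8 and Cox8c at most 5, and Cox8b was at 0 counts in all 4 ECL libraries.

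Cox7c, Cox6c and Cox6c2 were lower and were named after their values were seen. Cox7c, a small single-helix subunit with 83.8% of its 100-base stretches found in no other gene, had 105, 105, 108, 159 and 129 CPM in controls, 81.0, 80.9, 83.3 and 101 CPM after SCL, and 54.4, 72.7, 59.8 and 56.6 CPM after ECL, so that the 3 groups followed each other without overlap. For SCL the log2 fold change was -0.49 ± 0.15 (adjusted p = 0.0295, edgeR; lost without control replicate 5 or SCL replicate 1, 2 or 3, at -0.47 to -0.45 and adjusted p 0.0606 to 0.0811). For ECL it was -0.99 ± 0.16 (adjusted p = 0.000863, edgeR). Cox6c had 1026 to 1227 CPM in controls and 743, 883, 814 and 772 CPM after ECL (-0.49 ± 0.13, adjusted p = 0.0151, edgeR; lost without ECL replicate 4, at -0.47 and 0.0575). After SCL it was at -0.20 (adjusted p = 0.283, edgeR). Cox6c2 is annotated as a processed pseudogene in GENCODE M21, shares 100-base stretches with Cox6c and has 65.2% of its own found nowhere else, so its counts cannot be fully separated from those of Cox6c. It had 105 to 118 CPM in controls and 60.2, 74.6, 68.9 and 67.0 CPM after ECL (-0.72 ± 0.13, adjusted p = 0.00131, edgeR). Its part of the CPM of the pair was 9.0% ± 0.518 in controls and 7.77% ± 0.203 after ECL.

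**Figure D4:**
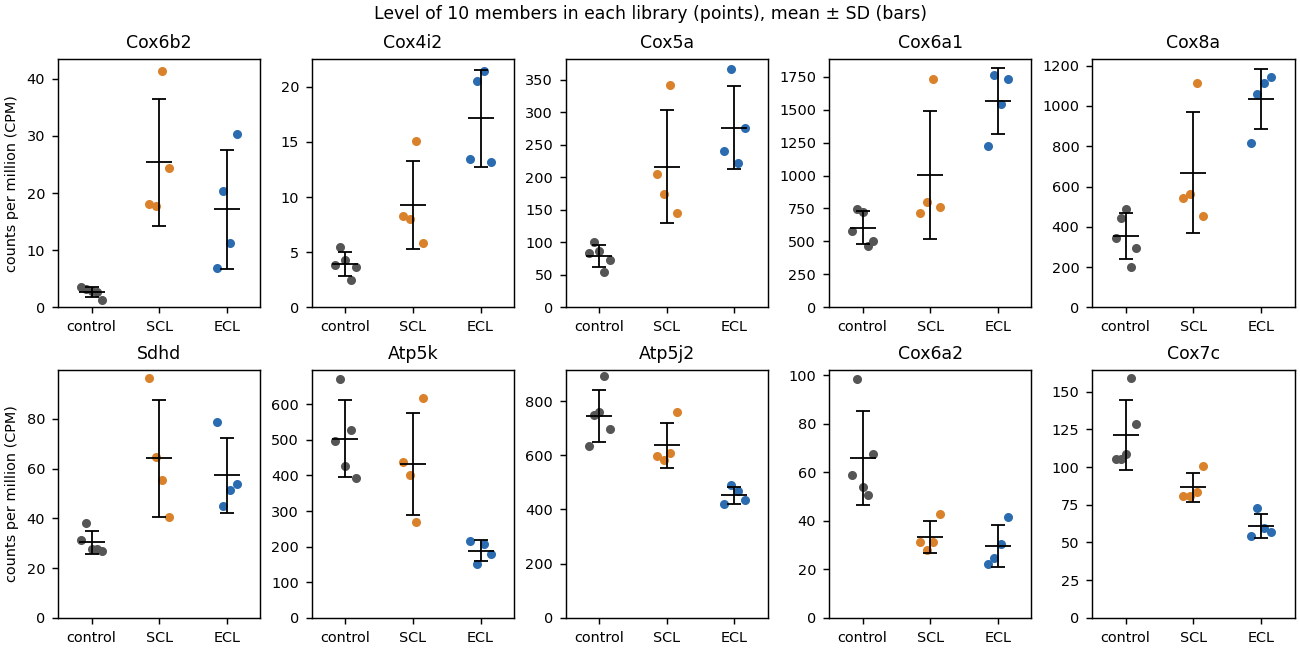
CPM (vertical axes, each from 0) of 10 members of complexes II, IV and V in control, SCL and ECL libraries. Points are libraries and bars show the mean ± SD (n = 5, 4 and 4). SCL replicate 3 lies in the range of the ECL libraries for Cox6a1 (1730 CPM) and Cox8a (1112 CPM), and for Atp5k the ECL libraries (152 to 217 CPM) lie below every SCL and control library.

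In complex V, Atp5c1, Atp5d, Atp5e, Atp5g1 and Atp5pb were called higher after ECL, and Atp5j2, Atp5k and Atp5md lower. After SCL, the 6 calls were all higher. Atp5c1, the gamma subunit of the rotating central stalk, had 418, 424, 365, 496 and 463 CPM in controls, 690, 530, 751 and 530 CPM after SCL, and 793, 703, 608 and 642 CPM after ECL. All lesioned libraries lay above the controls. The log2 fold change was 0.53 ± 0.15 for SCL (adjusted p = 0.0224, edgeR; lost without control replicate 1 or SCL replicate 1 or 3, at 0.44 to 0.52 and adjusted p 0.05 to 0.0714), and for ECL it was 0.67 ± 0.14 (adjusted p = 0.00353, edgeR). Atp5pb, subunit b of the outer stalk, rose from 418, 393, 355, 439 and 363 CPM to 711, 576, 725 and 518 CPM after SCL (0.69 ± 0.14, adjusted p = 0.00587, edgeR) and 770, 759, 468 and 602 CPM after ECL (0.73 ± 0.16, adjusted p = 0.00486, edgeR). Atp5o, the stalk subunit OSCP, was called after SCL at 0.56 ± 0.14 (adjusted p = 0.0119, edgeR), with 848 to 1117 CPM against 577 to 694 CPM in controls, and was at 0.34 ± 0.14 after ECL (adjusted p = 0.0833, edgeR). Of the exon bases of Atp5o, 47.9% are shared with other annotated genes, partly on the other strand.

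Atp5d and Atp5e, the delta and epsilon subunits of the central stalk, were named after their values were seen. Atp5d had 46.8, 68.9, 61.5, 19.1 and 33.9 CPM in controls, 58.0, 72.4, 115 and 86.2 CPM after SCL (0.84 ± 0.31, adjusted p = 0.0657, edgeR; called without control replicate 2, at 1.03 and 0.0336), and 75.0, 85.9, 133 and 113 CPM after ECL (1.15 ± 0.30, adjusted p = 0.0119, edgeR). Atp5e had 162, 204, 206, 124 and 132 CPM in controls, 199, 237, 389 and 258 CPM after SCL, and 185, 293, 235 and 275 CPM after ECL, so that replicate 1 of each lesion lay within the control range. Atp5e was called after SCL at 0.70 ± 0.21 (adjusted p = 0.0302, edgeR), a call lost without control replicate 1, 4 or 5 or SCL replicate 3 (0.48 to 0.69, adjusted p 0.0548 to 0.109). Its call after ECL, at 0.58 ± 0.19 (adjusted p = 0.0320, edgeR), was lost without control replicate 1, 4 or 5 or ECL replicate 2 or 4 (0.49 to 0.57, adjusted p 0.0626 to 0.0966). The subunits alpha and beta of the catalytic head, Atp5a1 and Atp5b, were not called (0.12 and 0.30 after SCL, -0.02 and 0.22 after ECL), although all SCL libraries lay above the controls for Atp5b. The stalk subunits Atp5h and Atp5j and the membrane subunit Atp5l were not called either, with log2 fold changes of -0.09, 0.14 and 0.10 after SCL and -0.08, -0.09 and 0.16 after ECL.

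The c-ring of complex V is made of 1 protein encoded by the paralogues Atp5g1, Atp5g2 and Atp5g3. Atp5g1 had 159, 178, 150, 103 and 128 CPM in controls, 286, 255, 267 and 258 CPM after SCL, and 245, 217, 266 and 227 CPM after ECL, without overlap (0.89 ± 0.16, adjusted p = 0.00311, and 0.74 ± 0.16, adjusted p = 0.00428, edgeR). Atp5g3 was at 0.10 and 0.03 (adjusted p = 0.599 and 0.891, edgeR) and Atp5g2 was under the mean minimum at 1.84 to 4.57 CPM. The share of Atp5g1 in the CPM of the 3 paralogues was 30.4% ± 6.27 in controls, 43.0% ± 3.6 after SCL and 41.9% ± 6.81 after ECL, with ECL replicate 2 (35.4%) below the highest control (36.5%).

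Atp5k, subunit e, which helps hold ATP synthase dimers together, lies on chromosome 5 (108433244 to 108434448, minus strand) and was the most abundant member of complex V per length in controls. It had 495, 671, 426, 529 and 394 CPM in controls, 437, 402, 270 and 618 CPM after SCL, and 217, 152, 209 and 178 CPM after ECL. The SCL libraries spread across and below the control range, and every ECL library lay below every other library. After ECL the log2 fold change was -1.40 ± 0.18 (adjusted p = 0.000203, edgeR), and between -1.48 and -1.28 without any 1 library. The SCL value was -0.22 ± 0.22 (adjusted p = 0.497, edgeR), and it ran from -0.44 without SCL replicate 4 to -0.04 without SCL replicate 3, uncalled in each fit that left out 1 library. Atp5j2, subunit f, followed with 635, 748, 761, 892 and 695 CPM in controls, 596, 582, 609 and 759 CPM after SCL, and 421, 490, 469 and 434 CPM after ECL. Here too every ECL library lay below every other library. Its log2 fold change was -0.71 ± 0.14 for ECL (adjusted p = 0.00247, edgeR) and -0.23 for SCL (adjusted p = 0.264, edgeR). Atp5md, a further small subunit linked to dimers and named after its values were seen, had 191 to 222 CPM in controls, 180 to 232 CPM after SCL and 143 to 166 CPM after ECL. Its call after ECL (-0.40 ± 0.12, adjusted p = 0.0235, edgeR) was lost without control replicate 2 or ECL replicate 1 or 4 (-0.41 to -0.35, adjusted p 0.0504 to 0.0612). Atp5mpl, a small proteolipid of the same sector, was called higher after SCL at 0.41 ± 0.14 (adjusted p = 0.0447, edgeR). The call was lost without control replicate 1, 3, 4 or 5 or SCL replicate 2, 3 or 4 (0.34 to 0.45, adjusted p 0.0679 to 0.115). After ECL Atp5mpl was at -0.15 ± 0.14 (adjusted p = 0.460, edgeR), with a positive sign under the scaling over all symbols.

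The lesions were also compared with each other directly, without the controls. By the file headings, all SCL libraries but replicate 4 were female and all ECL libraries but replicate 1 male, so lesion and sex were partly confounded here. No member of the 46 tested was called by edgeR, and neither was any other of the 12232 genes tested (0%). An unadjusted p under 0.05 was found for 9 members (19.6%, against 7.33% of all genes tested). DESeq2 called 1 member and 0.507% of all genes. The 2 members with the smallest unadjusted p were Atp5k, at -1.18 ± 0.23 (ECL minus SCL, unadjusted p = 0.000321, adjusted p = 0.327, edgeR), and Atp5mpl, at -0.56 ± 0.15 (unadjusted p = 0.00306, adjusted p = 0.486, edgeR). Atp5k was the member called by DESeq2 (adjusted p = 0.000927). For 9 members the ECL libraries all lay below the SCL libraries (19.6%, against 2.01% of all genes tested and 3.74% in either direction): Atp5j2, Atp5k, Atp5md, Atp5mpl, Cox5b, Cox6c, Cox6c2, Cox7c and Uqcr10. For no member did they all lie above (1.72% of all genes tested). SCL replicate 3 alone decided further calls. Without it, Cox6a1 was higher after ECL than after SCL at 1.05 (adjusted p = 0.0479, edgeR; 0.66 and 0.667 with it) and Cox8a at 1.00 (adjusted p = 0.0483, edgeR; 0.64 and 0.656 with it). Atp5k was then lower at -1.35 (adjusted p = 0.0331, edgeR), in a fit that called 54 genes in all.

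TMM factors over all symbols shifted the median of all genes to 0.213 after SCL and 0.182 after ECL. With them, 27 members were called higher and 1 lower in the SCL comparison (22% and 5.21% of all genes tested, 27.2% in all). After ECL, 19 were then called higher and 5 lower (21.7% and 6.2%, 27.9% in all). DESeq2 called 26 members after SCL and 25 after ECL, against 30.3% and 32.2% of all genes tested.

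The members are short genes, with a median exon length of 1756 bases against 4662 bases for all genes tested after ECL, and a median GC content of 49.8% against 48.5%. An offset for exon length and GC content, fitted as smooth curves in each library, moved the members' median log2 fold change to 0.11 after SCL and -0.02 after ECL, while that of all genes tested was 0.03 and 0.04. After SCL, 10 members were then called, 7 higher and 3 lower (23.9% of all genes tested, 13.2% higher and 10.6% lower). After ECL, 22 were called, 12 higher and 10 lower (29.6% of all genes tested, 16.3% higher and 13.2% lower). Of the members called higher, 7 of 18 after SCL (Atp5g1, Atp5pb, Cox5a, Cox6b2, Cycs, Sdhd and Uqcrc1) and 11 of 14 after ECL kept their call, all but Atp5e, Cox7a2l and Uqcrfs1. Both members called lower after SCL and all 7 after ECL kept theirs. New among the lower calls were Cox6c2 after SCL and Atp5mpl, Cox5b and Cox7a2 after ECL, and new among the higher calls was Uqcrc1 after ECL. Across the 45 tested members, Pearson's r of the log2 fold change with GC content was 0.165 after SCL and 0.236 after ECL, and with log2 exon length 0.0594 and 0.0239, as a description of genes that share their libraries.

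**Figure D5:**
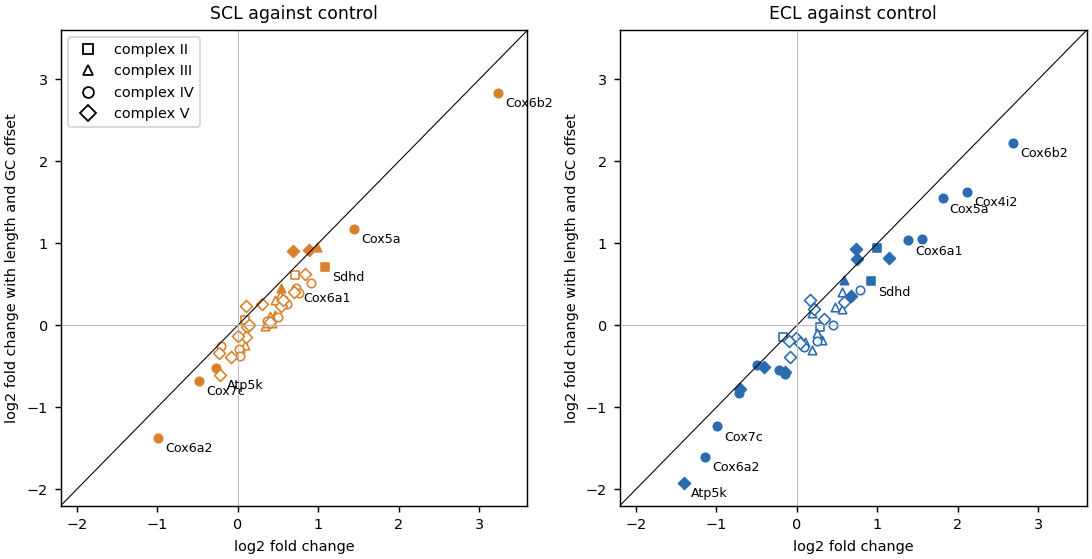
log2 fold change of each tested member with the offset for exon length and GC content (vertical axes) against that without it (horizontal axes), after SCL (left) and ECL (right). Marker shapes give the complex, filled markers were called with the offset, and the diagonal marks equal values. Most members lie below the diagonal, and Cox6b2, Cox5a, Cox6a2 and, after ECL, Atp5k stay far from 0 on both axes.

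Lists of functionally connected genes gave the surroundings of these members, read from the same fits, in which the shares of all genes called higher and lower were 13.1% and 11.8% (SCL) and 15.2% and 12.5% (ECL). Of 36 subunits of complex I, which feeds the chain with electrons from NADH, 12 (33.3%) rose after SCL with none called lower, while 12 (33.3%) rose and 5 (13.9%) fell after ECL. Of the 5 tested mitochondrially encoded subunits of complexes III to V, mt-Cytb, cytochrome b of complex III (1.502 and 1.60), and mt-Atp6, a proton channel subunit of complex V (0.97 and 1.08), were called higher after both lesions. Mean control levels were 1645 CPM for mt-Cytb and 6815 CPM for mt-Co1, but only 12.9 CPM for mt-Atp6, 14.5 CPM for mt-Co2 and 31.0 CPM for mt-Co3. Why these levels lie so far apart was not tested, and the mt-Atp6 value rests on few reads. Of 30 tested assembly factors, 7 (23.3%) rose after SCL with none called lower, while 8 (26.7%) rose and 2 (6.67%) fell after ECL. The 2 lower ones after ECL were Pet100, which is needed to build complex IV (-1.04 ± 0.14, adjusted p = 0.000316, edgeR), and Cox17, a copper chaperone of the same complex (-0.76 ± 0.23, adjusted p = 0.0242, edgeR). Of 13 citric acid cycle enzymes, 6 (46.2%) were called higher after SCL and 3 (23.1%) after ECL, among them citrate synthase (Cs) at 0.59 and 0.46. Of 13 carrier and outer membrane genes, 4 (30.8%) rose and 1 fell in the SCL comparison and 5 (38.5%) rose and 1 fell in the ECL comparison. Slc25a5, an ADP/ATP carrier, was at 1.60 and 1.56, and the import receptor Tomm70a at -0.58 and -0.85. Of 9 tested regulators of mitochondrial biogenesis, 0 were called higher, and 1 was called lower after SCL (11.1%) and 2 after ECL (22.2%), beside 11.8% and 12.5% of all genes. Ppargc1a, the coactivator PGC-1alpha, was called lower after both lesions (-0.45 ± 0.13, adjusted p = 0.0223, and -0.50 ± 0.14, adjusted p = 0.0202, edgeR). Tfam, the main packaging factor of mitochondrial DNA, was called lower after ECL (-0.54 ± 0.18, adjusted p = 0.0390, edgeR).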

How the data were processed

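The submitters sequenced 13 libraries (NEBNext Single Cell/Low Input kit, paired 150-base reads). Per the paper's methods and the submitters' processing notes, reads were trimmed with cutadapt 3.5, aligned to mm10 with STAR 2.7.8a and counted per gene with featureCounts 2.0.1 without strand. The authors deposited raw counts for 55291 gene symbols in each sample; how reads matching several genes were treated is not given in the sources used here. Of the counts from 1 to 20, 63.0% to 74.3% were even, and counts divided by 2 were tried as an alternative. The labels' extraction text names the dentate gyrus, whereas titles, tissue labels and the paper name CA1. Each library came from 1 culture, and the labels give no animal, batch or date, so p-values measure the spread between these cultures, some of which may share an animal. File headings carry a number and a sex that do not follow the replicate numbers of the titles, and samples were named by title. The headings mark control replicates 1 and 2, SCL replicate 4 and ECL replicates 2, 3 and 4 as male and the other libraries as female.

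Counts were tested in R 4.3.3 with edgeR 4.0.16 (quasi-likelihood test, two-sided, TMM factors over the genes tested, Benjamini-Hochberg adjustment, threshold 0.05), for each lesion against the controls and for ECL against SCL, on genes with a mean of at least 150 normalized counts over the libraries of the fit. Members and lists were chosen with earlier results of these data known, and members were read from fits over all genes. Named members were Cox6b2, Atp5k, up to 3 called members of each complex and lesion in order of adjusted p, the 2 with the smallest p between lesions, the 2 most abundant per length in each complex, and all paralogues. Gene models came from GENCODE M21 (all 50 members found; GENCODE M25 was used for counting) and promoters from RefSeq. The tests were tried on simulated data. The alternatives were DESeq2 1.42.0, other scalings and filters, a single fit, halved counts, a sex term, a replicate block, a length and GC offset (mgcv 1.9.3, known for 98.7% of genes tested after SCL), a threshold of 0.01 and leaving out each library.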

Additional observations from a re-analysis of the deposited data

Results flagged for a closer look

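For 36 named or called members with a test, 108 groups of libraries were examined for a library far from the rest of its group (Dixon's test at the 95% level), and 8 stood apart, where chance alone marks about 1 in 20 groups. SCL replicate 3 stood apart for Cox6a1 (1730 CPM, the other SCL libraries 719 to 796 CPM) and for Cox8a (1112 CPM, others 453 to 565 CPM). SCL replicate 1 stood apart for Cycs (96.3 CPM, others 56.8 to 60.3 CPM) and for Cyc1 (142 CPM, others 129 to 131 CPM), and SCL replicate 4 for Atp5j2 (759 CPM, others 582 to 609 CPM) and for Cox7c (101 CPM, others 80.9 to 83.3 CPM). Among the other groups, control replicate 4 stood apart for Atp5g3 (395 CPM, others 302 to 320 CPM) and ECL replicate 1 for Uqcrfs1 (294 CPM, others 209 to 218 CPM). In all 8 cases the library was the highest of its group.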

How the results depend on the processing

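Against 20 called members after SCL, 6 were called at an adjusted p under 0.01 and 10 with the length and GC offset, and leaving out 1 library gave 9 to 21 (12 without control replicate 1, 13 without control replicate 4, 10 without control replicate 5, and 13 and 9 without SCL replicates 1 and 3). In those 5 fits 20.5%, 23.4%, 19.3%, 17.4% and 15% of all genes were called, against 24.9% with all libraries. The members' median log2 fold change after SCL moved from 0.407 to 0.482 with filterByExpr, 0.111 with the offset, 0.617 without a filter and 0.603 with TMM factors over all symbols, and lay between 0.367 and 0.46 without 1 library. After ECL it moved from 0.25 to 0.319, -0.0166, 0.438 and 0.442 in the same order, and the calls numbered 17 to 23 without 1 library. Those fits called 18.8% (17 members, without ECL replicate 4) to 27.2% (23 members, without control replicate 2) of all genes tested, against 27.8% with all libraries. TMM over all symbols gave all genes a median of 0.213 (SCL) and 0.182 (ECL) and moved their calls to 2516 higher and 596 lower and to 2435 and 695, with 27 higher and 1 lower and 19 higher and 5 lower among members. Between the lesions, DESeq2 called 1 member (Atp5k, lower) and 0.507% of all genes tested. The fit without a filter called 2 members (Atp5k lower, Cox4i2 higher) and 217 of 44182 genes. The fit without SCL replicate 3 called 3 members and 0.446% of 12115 genes, with 0 to 3 members over all left-out libraries. The offset turned the sign of 8 tested members after SCL, among them Uqcr11 (-0.00516), Cox4i1 (-0.317), Cox5b (-0.289) and Cox7a2 (-0.372), and of 9 after ECL, among them Sdhb (-0.0166), Uqcr10 (-0.297), Uqcr11 (-0.179), Cox4i1 (-0.194) and Cox7b (-0.262). Without a filter and with TMM over all symbols it turned for 2 members after SCL and 6 after ECL, among them Atp5mpl (0.0322) and Sdha (0.0286). None of these was called in either setting. Leaving aside the 0.01 threshold, called in every alternative in which they were tested were 5 of the 18 members higher and 1 of the 2 lower after SCL (Atp5g1, Atp5pb, Cox5a, Cox6b2, Sdhd and Cox6a2), and 11 of 14 higher and 5 of 7 lower after ECL. Of the 20 alternatives, Cox6b2 was tested in 19 after SCL and 18 after ECL and Cox4i2 in 19 after ECL, and they were under the mean minimum in the rest. Except where a value or the setting's construction shows it, the cause was not tested.

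Libraries of different groups were correlated after the mean of its group had been subtracted from each gene's log2 CPM. The values thus describe deviations from the group means, not whole expression profiles. Correlations of these deviations between libraries with the same title number ranged from -0.175 (control and ECL replicate 2) to 0.549 (ECL and SCL replicate 1). Those of differently numbered libraries ranged from -0.419 (control replicate 3 and SCL replicate 1) to 0.358 (ECL replicate 3 and SCL replicate 4). Whether libraries of the same number share an animal or batch was not tested. With the replicate block, 15 members were called after SCL (13 higher, 2 lower), 20 after ECL (13 higher, 7 lower) and 0 between the lesions. Among all genes, 2336 of 11612, 2680 of 11376 and 0 of 12232 tested were called with the block. A sex term gave 18 members after SCL (16 higher, 2 lower), 21 after ECL (14 higher, 7 lower) and 0 between the lesions. Among all genes, 2581 of 11438, 2369 of 11212 and 1 of 12232 tested were then called. The sex term ended the calls of Cycs, Uqcr10 and Cox8a after SCL and of Atp5e after ECL.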
